A study of Mus musculus with 24 samples.

Results

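The genes described here are a set of 9 globin and erythroid genes: the adult alpha-globin genes Hba-a1 and Hba-a2, the adult beta-globin genes Hbb-bs and Hbb-bt, and Alas2, Slc4a1, Car1, Car2 and Bpgm. They were selected on their measured levels in these same libraries, by gene symbol, so their levels and differences are given as a description and support no test of the set. All 9 were among the 55335 genes listed for peripheral blood mononuclear cells (PBMCs) and among the 35001 gene names listed in all 5 surface RNA tables. The 9 PBMC libraries of mouse blood carry 3 treatment labels, ct, WT and Y, with 3 libraries each. All are labelled wild type, and the labels do not say what ct, WT and Y stand for. The 15 surface RNA libraries come from C57BL/6 mice labelled WT, with 3 libraries each of spleen B cells, CD8 T cells and natural killer (NK) cells, and of bone marrow monocytes and hematopoietic stem and progenitor cells (HSPCs). They were made with AMOUR, which copies RNA on the outer face of the plasma membrane of fixed cells by means of a T7 promoter oligonucleotide with a random 3′ end and T7 RNA polymerase. Red blood cell lysis buffer was used while these cells were prepared. The cells were isolated with kits, so each is a purified fraction and not a clone or a line. The study calls the surface libraries of a cell type biological replicates. Nothing in the labels says that libraries of one group came from separate mice, and where they did not, the p-values below measure only the spread between these libraries.

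Hemoglobin is assembled from alpha-globin and beta-globin chains, each of which holds a heme group, and maturing erythroid cells make these chains in large amounts. Alas2 encodes the erythroid form of the first enzyme of heme synthesis, and Slc4a1 encodes band 3, the anion exchanger of the red cell membrane. Car1 and Car2 encode the carbonic anhydrases of the red cell, which interconvert carbon dioxide and bicarbonate, and Bpgm makes 2,3-bisphosphoglycerate, which lowers the oxygen affinity of hemoglobin. Reticulocytes, the last stage before the mature red cell, circulate in blood and still hold globin RNA.

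The alpha-globin genes lie on the + strand of chromosome 11, Hba-a1 at chr11:32283511-32284465 and Hba-a2 at chr11:32296489-32297298 (GRCm38, GENCODE M21). The beta-globin genes lie on the - strand of chromosome 7, Hbb-bs at chr7:103826534-103828096 and Hbb-bt at chr7:103812524-103813996. Within each pair the coding sequences differ at a single base, and the stretch around that base is shown because reads from the rest of the coding sequence cannot tell the copies apart. The base that differs is in capitals. Positions are counted from 1 at the A of the start codon, and the stop codon is left out. The alpha pair differs by C381T over 426 coding bases (99.8% identity), and the stretches cover coding bases 351 to 411 at chr11:32284313-32284373 and chr11:32297130-32297190.
Hba-a1-201: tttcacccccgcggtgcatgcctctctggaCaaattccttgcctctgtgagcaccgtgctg
Hba-a2-201: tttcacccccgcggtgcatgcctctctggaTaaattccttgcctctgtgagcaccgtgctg
The beta pair differs by C417T over 441 coding bases (99.8% identity), and the stretches cover coding bases 387 to 441 at chr7:103826668-103826722 and chr7:103812659-103812713, both on the - strand.
Hbb-bs-201: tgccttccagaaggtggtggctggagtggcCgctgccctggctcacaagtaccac
Hbb-bt-201: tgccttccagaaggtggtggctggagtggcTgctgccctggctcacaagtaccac
The main alpha transcripts shared 477 words of 31 bases, which were 71.3% of those of Hba-a1-201 and 91.0% of those of Hba-a2-201. The main beta transcripts shared 400 such words, 66.9% of those of Hbb-bs-201 and 59.4% of those of Hbb-bt-201. The split of reads within each pair is therefore uncertain, and the sum of each pair is given beside the single genes. Car1 and Car2 shared 0 words of 31 bases between Car1-203 and Car2-201.

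The 120 bases before the RefSeq start site (GRCm38.p6) are shown for the members with an entry, since their levels moved together in blood. Entries matched 6 of the 9 members, and none matched Slc4a1, Car1 or Car2. Capitals mark 4 motifs searched on both strands: a GATA site (AGATAA, or the same letters with T first, with G last or with both), the letters CACCC, the letters CCAAT and the letters ATATAA. Adjoining matches run together in capitals, as do the CCAAT letters on both strands in Hbb-bt and the CACCC letters on the other strand in Alas2. The windows are chr11:32283552-32283671 for Hba-a1, chr11:32296372-32296491 for Hba-a2, chrX:150547297-150547416 for Alas2 and chr6:34476236-34476355 for Bpgm on the + strand, and chr7:103827929-103828048 for Hbb-bs and chr7:103813924-103814043 for Hbb-bt on the - strand.
Hba-a1: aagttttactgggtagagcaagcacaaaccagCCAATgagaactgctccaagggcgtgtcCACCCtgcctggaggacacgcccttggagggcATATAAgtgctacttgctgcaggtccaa
Hba-a2: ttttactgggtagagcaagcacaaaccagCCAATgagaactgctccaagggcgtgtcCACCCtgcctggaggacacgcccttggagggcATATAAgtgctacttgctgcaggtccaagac
Hbb-bs: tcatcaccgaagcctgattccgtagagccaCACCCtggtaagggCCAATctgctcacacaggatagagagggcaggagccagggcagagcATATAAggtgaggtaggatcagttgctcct
Hbb-bt: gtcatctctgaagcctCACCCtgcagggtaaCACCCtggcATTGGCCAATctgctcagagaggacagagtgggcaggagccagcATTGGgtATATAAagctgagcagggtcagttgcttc
Alas2: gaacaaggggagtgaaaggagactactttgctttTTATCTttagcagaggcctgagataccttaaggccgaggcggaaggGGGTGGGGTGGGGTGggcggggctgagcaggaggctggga
Bpgm: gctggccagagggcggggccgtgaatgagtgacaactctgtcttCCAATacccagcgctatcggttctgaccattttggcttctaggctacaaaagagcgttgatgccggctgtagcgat
ATATAA was found in the 4 globin windows and in 4.68% of 27025 windows of the same length. CCAAT was found in the 4 globin windows and in Bpgm, against 22.1% of all windows. CACCC was found in the 4 globin windows and in Alas2, against 31.3% of all windows. The GATA letters were found in Alas2 alone, against 13.03% of all windows, and a match or its absence describes only these letters in this window. The alpha-globin windows were identical over 117 of 117 aligned bases, and the beta-globin windows over 88 of 119 (73.9%).

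In blood, adult globin RNA was abundant and was lower in both WT and Y than in ct. The PBMC libraries held 4686387 to 9055761 assigned expected counts, of which a single ribosomal RNA gene took 50.5 to 57.0%. The 4 adult globins together took 6535, 7923 and 7946 of each 1000000 counts (CPM) for ct, 4942, 4249 and 3810 for WT, and 4813, 4777 and 4789 for Y. Every ct library lay above every WT and Y library, while the ranges of WT and Y overlapped. In deposited TPM the order of WT and Y was the other way, with 2391 to 2744 in WT wholly above 2229.97 to 2370 in Y, and ct again above both. Globins made up 0.747% ± 0.0808 of ct counts, 0.433% ± 0.0571 of WT counts and 0.479% ± 0.00182 of Y counts (SD, n = 3 here and below). On the deposited TPM scale, which allows for gene length, Hbb-bs ranked 2 among protein-coding genes in all 9 libraries, and Hba-a1 and Hba-a2 held ranks 3 and 4. Hbb-bt ranked 10 to 15 in ct, 25 to 32 in WT and 29 to 30 in Y. In bulk RNA, fewer erythroid cells and less RNA per cell cannot be told apart.

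**Figure D1:**
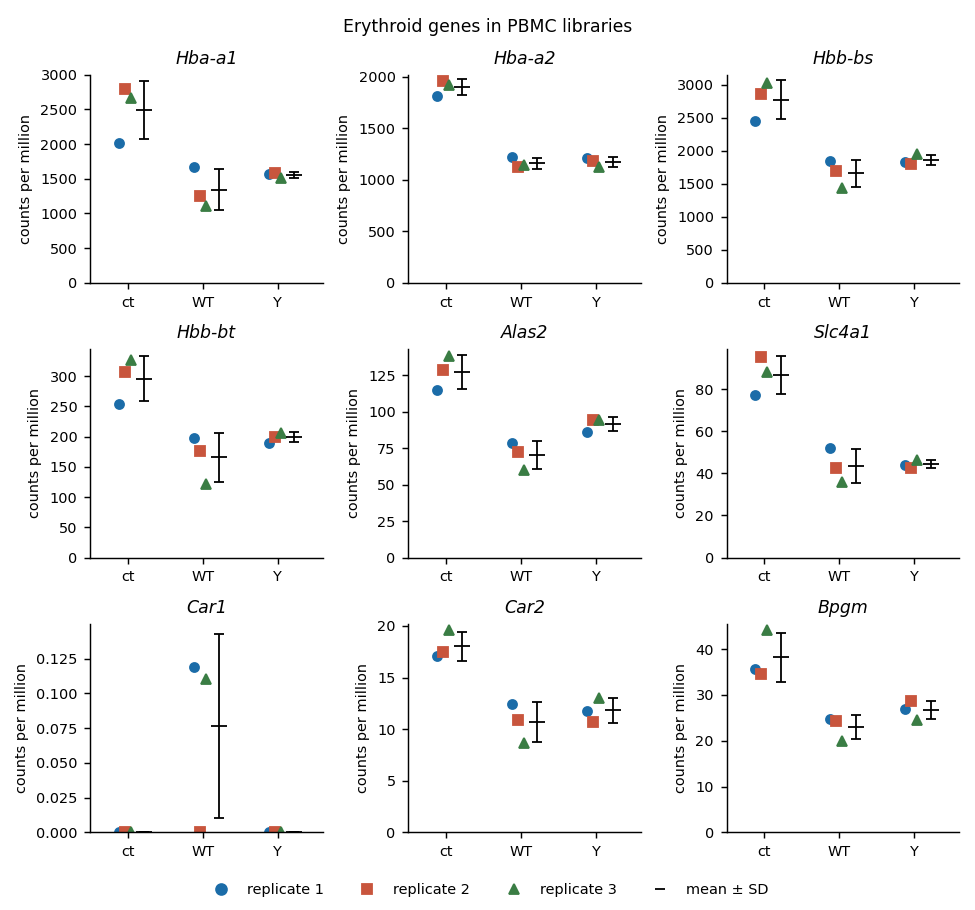
Expression of each of the 9 genes in the PBMC libraries, in CPM on a linear axis from 0, for the groups ct, WT and Y. Points are libraries and bars are the mean ± SD of 3. For every gene except Car1, the 3 ct points lie above all WT and Y points, and Car1 has single counts in 2 WT libraries only.

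The alpha-globin genes encode the same hemoglobin chain. Hba-a1 measured 2015, 2794 and 2662 CPM for ct, 1672, 1254 and 1104 for WT, and 1573, 1582 and 1505 for Y. Hba-a2 measured 1814, 1966 and 1925 CPM for ct, 1224, 1122 and 1145 for WT, and 1217, 1186 and 1127 for Y. In CPM Hba-a1 varied more between libraries of ct and WT than Hba-a2 did. In deposited TPM the highest ct library was 1.22 times the lowest for Hba-a1 and 1.24 times for Hba-a2. In WT these ratios were 1.13 and 1.22. For both genes no WT or Y library reached the lowest ct library. Their sum was 4392 ± 496 CPM in ct, 2507 ± 343 in WT and 2730 ± 85.6 in Y.

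Of the adult beta-globin genes, Hbb-bs was the higher in blood. Hbb-bs measured 2453, 2856 and 3031 CPM for ct, 1848, 1696 and 1440 for WT, and 1833, 1810 and 1950 for Y. Hbb-bt measured 254, 306 and 327 CPM for ct, 198, 177 and 121 for WT, and 190, 200 and 207 for Y. For both, the ct libraries stood apart and WT replicate 3 was the lowest of all 9. Hbb-bt made up 6.46 to 8.17% of beta-globin TPM across the 9 libraries, and Hba-a1 made up 43.6 to 52.5% of alpha-globin TPM. The ratio of alpha-globin to beta-globin TPM was 1.39 ± 0.0787 for ct, 1.35 ± 0.108 for WT and 1.27 ± 0.0958 for Y, and these ranges overlapped.

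The erythroid enzymes and band 3 were lower than the globins, and apart from Car1 their mean CPM had the same order of groups. Alas2 measured 115, 129 and 138 CPM for ct, 78.7, 72.3 and 59.96 for WT, and 86.4, 94.4 and 94.3 for Y, so that its 3 groups did not overlap in CPM. In deposited TPM its Y range, 11.6 to 13.3, overlapped with its WT range, 10.4 to 12.5. Slc4a1 measured 77.3, 95.2 and 88.0 CPM for ct, 52.0, 42.3 and 36.0 for WT, and 43.96, 42.8 and 46.3 for Y. Slc4a1 CPM in Y lay within the range of WT, and both lay well under ct, while its TPM in Y, 2.33 to 2.42, lay wholly under WT at 2.60 to 3.08. Bpgm measured 35.7, 34.6 and 44.2 CPM for ct, 24.7, 24.4 and 19.99 for WT, and 26.9, 28.6 and 24.6 for Y. Car2 measured 17.1, 17.4 and 19.6 CPM for ct, 12.5, 10.9 and 8.61 for WT, and 11.7, 10.7 and 13.1 for Y. Both genes were highest in the 3 ct libraries, with WT and Y overlapping for Car2 and, by a small margin, for Bpgm. Alas2 TPM stood at 4.35 to 5.70 per 1000 globin TPM over the 9 libraries. The Y libraries, at 4.89 to 5.70, lay above all those of ct (4.61 to 4.77) and WT (4.35 to 4.82).

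Car1 was the exception in blood. Its expected count was 0 in all 3 ct and all 3 Y libraries, and 1, 0 and 1 in WT. At a floor of 3 counts over a group, 0 counts allowed up to 0.129 CPM in ct and 0.156 CPM in Y, for counting error only. Car2, a carbonic anhydrase gene near it on chromosome 3 (chr3:14886273-14900770, + strand), had 148, 119 and 154 counts in the same ct libraries. The embryonic globin genes Hba-x, Hbb-y, Hbb-bh1 and Hbb-bh2 were at 0 counts in all 9 libraries. Hbq1b, a theta-globin gene, had 25, 19 and 15 counts summed over ct, WT and Y.

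WT was compared with ct to ask which blood genes differed between these labels. All 8 members that passed the filter on low counts fell in WT, where 1.6% of all 11635 genes tested were called lower. Car1 did not pass the filter. The log2 fold changes, from edgeR's quasi-likelihood test with Benjamini-Hochberg adjustment, had a median of -0.73 for the members and 0.00 for all genes. Slc4a1 had the largest change, at -0.93 ± 0.09 (SE; adjusted p = 0.000167), a 1.91-fold lower level. Hba-a1 changed by -0.82 ± 0.13 (edgeR, adjusted p = 0.00191) and Hbb-bt by -0.78 ± 0.10 (edgeR, adjusted p = 0.000381). Hba-a2 had the smallest change, at -0.62 ± 0.12 (edgeR, adjusted p = 0.0113). Alas2 changed by -0.78 ± 0.08, Car2 by -0.69 ± 0.10, Hbb-bs by -0.67 ± 0.11 and Bpgm by -0.65 ± 0.10. The members also had no overlap of CPM with ct in 8 of 8 cases, where 7.82% of all genes tested lay wholly lower in WT. When each library was left out in turn, 7 or 8 members were called.

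Y against ct uses the same 3 ct libraries, so it is not independent of WT against ct. All 8 tested members fell in Y, where 0.438% of all genes tested were called lower. Slc4a1 again had the largest change, at -1.01 ± 0.10 (edgeR, adjusted p = 2.7e-05), a 2.01-fold lower level. Hba-a2 changed by -0.73 ± 0.13, Hba-a1 by -0.71 ± 0.13, Hbb-bs by -0.61 ± 0.11 and Hbb-bt by -0.61 ± 0.10. Car2 changed by -0.65 ± 0.10, Bpgm by -0.55 ± 0.10 (edgeR, adjusted p = 0.0141) and Alas2 by -0.51 ± 0.08 (edgeR, adjusted p = 0.00512). The median over the members was -0.63, and 8 of 8 had no overlap with ct, against 4.98% of all genes lying wholly lower in Y. The number called fell from 8 to 5 without Y replicate 2 and to 2 without Y replicate 3, while every log2 change stayed between -1.06 and -0.45 when single libraries were left out.

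No member passed the test between Y and WT. In edgeR 0 of 8 members were called, where 1.25% of all genes tested were, and 1 of 8 had an unadjusted p under 0.05. DESeq2 also called 0, with 1 at an unadjusted p under 0.05. That gene was Alas2 in edgeR, at 0.27 ± 0.08 (unadjusted p = 0.00500, adjusted p = 0.170), and it was the single member whose CPM lay wholly higher in Y, against 9.52% of all genes. The other 7 ranged from -0.11 for Hba-a2 to 0.17 for Hbb-bt. The median log2 ratio of group means, Y over WT, was 0.19 in CPM and -0.03 in deposited TPM. The sign differed between the units for 5 of the 8, and Alas2, Car2 and Bpgm had the higher mean in Y in both.

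**Figure D2:**
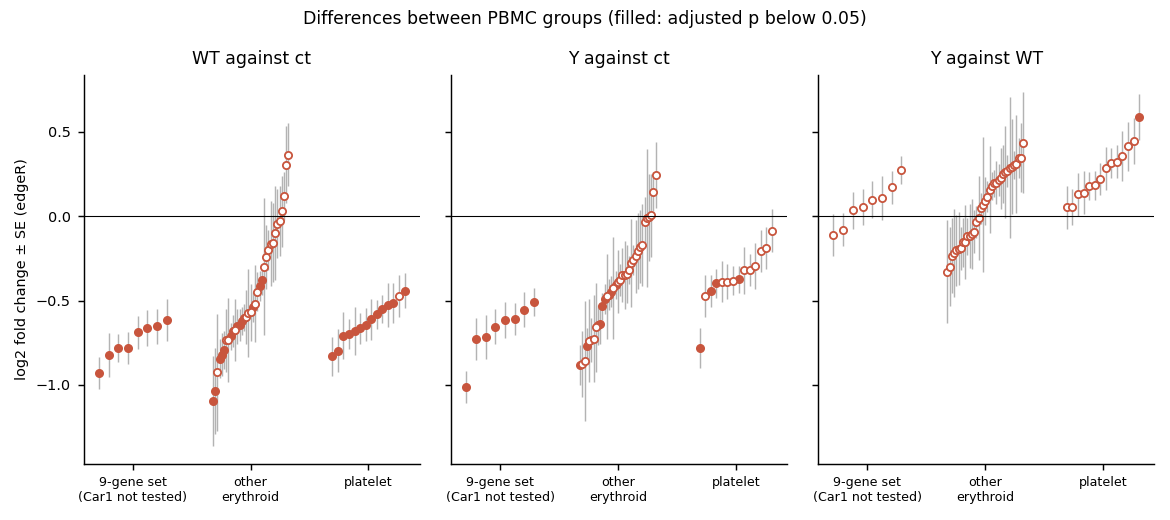
Log2 fold changes ± SE (edgeR, linear axis in log2 units) between PBMC groups for the tested members, 35 other erythroid genes and 14 platelet genes. Filled points passed an adjusted p of 0.05. All 8 members lie under 0 in WT and in Y against ct, and none is filled in Y against WT.

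Other erythroid genes were read from a list of 46 that includes red cell membrane, heme synthesis, iron and transcription factor genes, of which 35 passed the filter. In WT against ct, 14 fell and 0 rose, with a median of -0.57, where 1.6% of all genes tested were called lower. Ank1, which ties the red cell membrane to its skeleton, changed by -1.04 ± 0.26 (edgeR, adjusted p = 0.0425), and the peroxiredoxin gene Prdx2 by -0.82 ± 0.13 (edgeR, adjusted p = 0.00161). In Y against ct, 10 fell and 0 rose, with a median of -0.39, where 0.438% of all genes tested were called lower. The count was 3 without Y replicate 1, 6 without Y replicate 2, 3 without Y replicate 3 and 6 without ct replicate 2. Fech, the last enzyme of heme synthesis, changed by -0.77 ± 0.11 (edgeR, adjusted p = 0.00169) and Prdx2 by -0.73 ± 0.13 (edgeR, adjusted p = 0.00932). In Y against WT, edgeR called 0 of 35, with 6 at an unadjusted p under 0.05, and DESeq2 called 0, with 1 at an unadjusted p under 0.05.

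Platelet genes also differed between the groups. For the counts in this paragraph, of all 11635 genes tested 89 rose and 186 fell in WT against ct. In Y against ct 31 rose and 51 fell, and in Y against WT 51 rose and 95 fell. Of 14 platelet genes, 13 fell in WT against ct with a median of -0.63, and 4 fell in Y against ct with a median of -0.38. The count for WT was 8 without WT replicate 2. The count for Y was 1 without Y replicate 1, 2 or 3, 2 without ct replicate 1, 2 or 3, 1 with a replicate block or with only the compared groups, and 7 with no filter. In Y against WT 1 of the 14 rose, with a median of 0.25, and 9 had every Y library above every WT library in CPM. Summed platelet CPM was 812 to 945 in ct, 476 to 614 in WT and 660 to 708 in Y. The other erythroid genes summed to 921 to 1080 CPM in ct, 520 to 706 in WT and 708 to 781 in Y. Neutrophil genes moved the other way in Y, where 8 of 10 tested rose against ct, as did 8 against WT, and summed CPM was 284 to 303, against 111 to 133 in ct and 85.7 to 112 in WT. In WT against ct 2 neutrophil genes rose and 2 fell. Of 9 tested NK genes 2 rose in WT against ct. Of 10 monocyte genes 1 rose and 1 fell in WT against ct, and 2 fell in Y against WT. Of 3 tested HSPC genes 1 fell in each comparison with ct, and of 4 tested proliferation genes 1 rose in Y against ct and 1 in Y against WT. No gene of the B cell or T cell lists was called in these 3 comparisons, where 1 T cell gene had an unadjusted p under 0.05 in WT against ct and 1 in Y against WT, and 1 and 2 B cell genes did. The part of these cell types in the members' differences was not tested.

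Across the 9 PBMC libraries the gene whose log2 CPM was most like the summed globins, of 3910 compared, was Plxna4, which encodes a semaphorin receptor, with Pearson r = 0.973. Bcl2l1, which encodes the survival factor Bcl-xL, followed at r = 0.973. Fam220a had r = 0.965. The members other than Car1 had r of 0.936 for Bpgm to 0.992 for Hbb-bs. The globin genes among them are parts of the sum, so their r is high by construction. Car1, which had almost no counts in blood, had r = -0.441. These libraries share 3 groups, so the r values describe the likeness and carry no test.

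On cell surfaces Car1 on NK cells had the highest TPM of the set, and the other members were lower. Surface levels are TPM summed over the transcripts of a gene that were listed for every cell type. The depth of these libraries is unknown. Protein-coding genes held 6442 to 29578 TPM in the B cell, T cell, NK and HSPC libraries and 168405 to 180728 in the monocyte libraries, which were also sequenced on another platform, so level differences with monocytes are given on more than one scale. The study counts transcripts above 50 TPM as positive hits. Car1 exceeded 50 TPM in 1 library, NK replicate 3, and no other member exceeded 50 TPM in any library. The study also states that no current method, AMOUR included, wholly removes the risk of contamination by RNA from inside the cells.

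**Figure D3:**
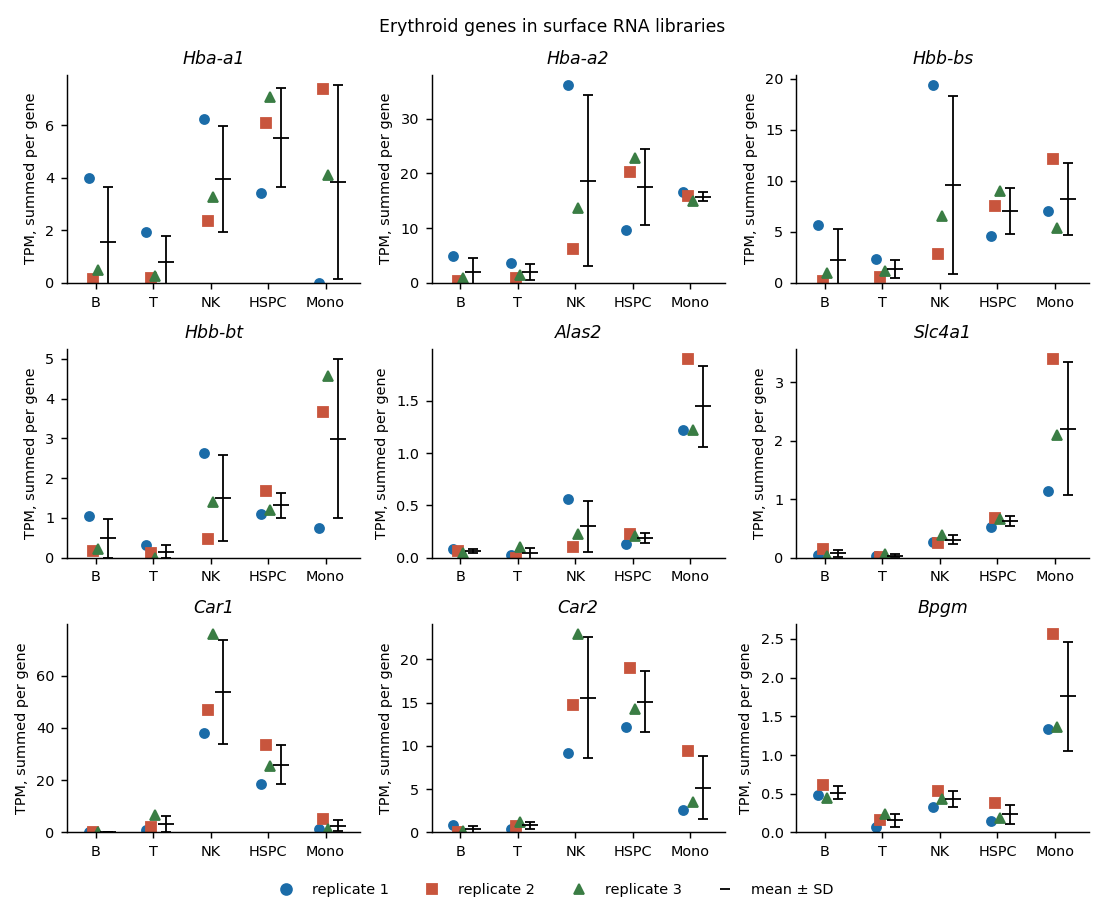
Surface RNA level of each of the 9 genes, in TPM summed per gene on linear axes from 0, in the libraries of B cells, T cells, NK cells, HSPCs and monocytes (Mono). Points are libraries and bars are the mean ± SD of 3. Car1 and Car2 are highest on NK cells and HSPCs, and the globins are highest in replicate 1 within B, T and NK cells.

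Car1 had the widest range of the set. It measured 38.0, 47.0 and 76.0 TPM on NK cells, 18.6, 33.6 and 25.6 on HSPCs, 0.895, 2.00 and 6.70 on T cells, 1.24, 5.17 and 1.42 on monocytes, and 0.0783, 0.0271 and 0.0780 on B cells. NK libraries lay above all HSPC libraries, HSPC libraries lay above all others, and T cells and monocytes overlapped. As a share of protein-coding TPM the order of NK cells and HSPCs was kept, at 0.234% ± 0.0389 and 0.165% ± 0.00915. Car1 ranked 53 to 80 among protein-coding genes on NK cells, 101 to 113 on HSPCs and 230 to 965 on T cells. Hba-a2 ranked 60 to 529 on NK cells and at worst 163 on HSPCs. Hbb-bs ranked 128 to 1544 on NK cells and 231 to 317 on HSPCs, and Car2 194 to 232 and 146 to 169.

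Car2 resembled Car1 on these surfaces. It measured 9.12, 14.7 and 22.9 TPM on NK cells, 12.1, 19.0 and 14.3 on HSPCs, 2.62, 9.40 and 3.52 on monocytes, 0.435, 0.721 and 1.23 on T cells, and 0.823, 0.0943 and 0.139 on B cells. NK cells and HSPCs overlapped in TPM. As a share of protein-coding TPM, HSPCs at 0.0973% ± 0.00955 lay wholly above NK cells at 0.0659% ± 0.0101.

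Car1 lies on the - strand of chromosome 3 at chr3:14766216-14808368, and its annotated transcripts begin at 2 places (GRCm38, GENCODE M21, matched to the surface tables by transcript name). Car1-203 begins at position 14808365 and Car1-201 at position 14778459, which is 29906 bases downstream. The mouse gene is known for a far upstream start used in erythroid cells and a nearer one used in colon. Car1-203 measured 30.8, 37.4 and 60.6 TPM on NK cells, 14.3, 28.1 and 21.0 on HSPCs and 0.599, 1.83 and 5.47 on T cells. It made up 80.0%, 81.5% and 82.4% of Car1 TPM in these 3 types. Transcripts from the far start, Car1-203 and Car1-202 together, held 97.1 to 100% of Car1 TPM per NK library, 95.3 to 97.7% per HSPC library and 100% in each T cell library. In monocytes the far start held 100% in replicate 2 and under 0.01% in replicates 1 and 3. On B cells, where Car1 stayed under 0.1 TPM, it held under 0.01% in replicates 1 and 2 and 37.6% in replicate 3. Car1-203 and Car1-201 shared 94.4% and 95.6% of their words of 31 bases, so this split rests on a first exon of 64 bases against 51 bases, and its error is not known from the tables.

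**Figure D4:**
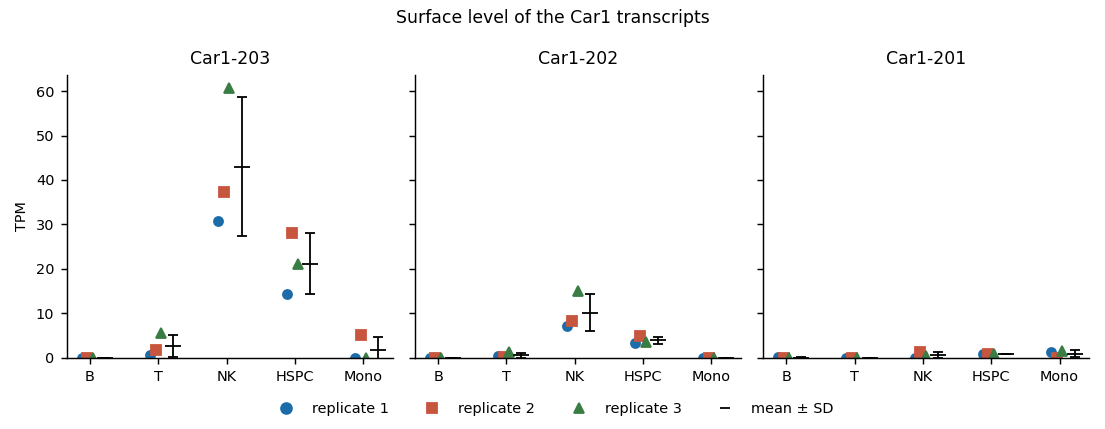
Surface level of the 3 Car1 transcripts in TPM, on a linear axis from 0, by cell type. Points are libraries and bars are the mean ± SD of 3. Car1-203 carries most of the signal on NK cells and HSPCs, and Car1-201 stays low in all 5 cell types.

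Globin RNA was found in the surface libraries of all 5 cell types, with a wide spread between libraries and no single globin gene above 50 TPM. The 4 adult globins summed to 64.5, 11.8 and 24.9 TPM on NK cells, 18.7, 35.5 and 40.0 on HSPCs, 24.4, 38.9 and 28.9 on monocytes, 15.6, 0.851 and 2.60 on B cells, and 8.35, 1.82 and 2.75 on T cells. Replicate 1 was the highest library of the B cell, T cell and NK groups and the lowest of the HSPC and monocyte groups. The NK, HSPC and monocyte ranges overlapped, and so did those of B and T cells. NK and B cells overlapped too, as the lowest NK library, at 11.8 TPM, lay under the highest B cell library, at 15.6 TPM. As a share of protein-coding TPM the globins held 0.198% ± 0.0421 on HSPCs, 0.188% ± 0.213 on NK cells, 0.0549% ± 0.0650 on T cells, 0.0235% ± 0.0268 on B cells and 0.0177% ± 0.00486 on monocytes. On that scale monocytes moved from among the higher types to the lowest mean.

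Hba-a2 was the highest of the 4 globins on most surfaces. It measured 36.2, 6.17 and 13.7 TPM on NK cells, 9.68, 20.2 and 22.8 on HSPCs, 16.6, 15.8 and 14.9 on monocytes, 4.87, 0.302 and 0.898 on B cells, and 3.72, 0.894 and 1.36 on T cells. Hba-a1 measured 6.22, 2.37 and 3.27 TPM on NK cells, 3.43, 6.08 and 7.06 on HSPCs, 0, 7.37 and 4.11 on monocytes, 3.98, 0.148 and 0.500 on B cells, and 1.95, 0.203 and 0.251 on T cells. The value of 0 in monocyte replicate 1 stands beside 16.6 TPM for Hba-a2, with which Hba-a1 shares most of its sequence. Hba-a2-201 was the only Hba-a2 transcript listed for B cells, T cells, NK cells and HSPCs, so its share of 100% there is fixed by the listing. In monocytes the retained-intron transcript Hba-a2-202 was also listed, at 0 TPM. Hba-a1-201 carried 92.8% of Hba-a1 TPM on HSPCs but 25.4% on monocytes, where the retained-intron transcript Hba-a1-202 carried 74.6%.

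Hbb-bs measured 19.4, 2.83 and 6.57 TPM on NK cells, 4.55, 7.49 and 8.97 on HSPCs, 7.02, 12.1 and 5.40 on monocytes, 5.67, 0.226 and 0.976 on B cells, and 2.36, 0.600 and 1.13 on T cells. Hbb-bt measured 2.62, 0.465 and 1.40 TPM on NK cells, 1.09, 1.67 and 1.19 on HSPCs, 0.739, 3.65 and 4.57 on monocytes, 1.06, 0.174 and 0.224 on B cells, and 0.330, 0.125 and 0 on T cells. Hbb-bs exceeded Hbb-bt in every surface library, as in blood. The ratio of alpha-globin to beta-globin TPM was 1.12 to 2.94 over the surface libraries and 1.16 to 1.47 over the PBMC libraries. These are unlike measures, kallisto TPM of surface RNA with retained-intron transcripts included, and RSEM TPM of total RNA. Some surface ratios also rest on low values, as the globins summed to 0.851 TPM in B cell replicate 2.

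Over the transcripts listed for every cell type, Alas2, Slc4a1 and Bpgm reached at most 3.39 TPM in any surface library. Alas2 measured 1.23, 1.90 and 1.22 TPM on monocytes, 0.565, 0.1004 and 0.228 on NK cells and 0.132, 0.229 and 0.207 on HSPCs. Slc4a1 measured 1.14, 3.39 and 2.09 TPM on monocytes, 0.520, 0.673 and 0.665 on HSPCs and 0.263, 0.257 and 0.394 on NK cells. The monocyte values of Slc4a1 leave out Slc4a1-203, which was listed for monocytes only. That transcript had a further 2.57 TPM in replicate 2 and 0 in replicates 1 and 3. Bpgm measured 1.33, 2.57 and 1.37 TPM on monocytes, 0.486, 0.607 and 0.444 on B cells, 0.333, 0.537 and 0.432 on NK cells, 0.141, 0.373 and 0.185 on HSPCs and 0.0716, 0.163 and 0.235 on T cells. Each was highest on monocytes in TPM. As a share of protein-coding TPM, Slc4a1 was highest on HSPCs at 0.00404% ± 0.000534, while the highest means of Alas2, on NK cells, and of Bpgm, on B cells, overlapped with those of other types. Alas2 reached at most 0.0807 TPM on B cells and 0.0995 on T cells, and Slc4a1 at most 0.142 and 0.0581.

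Car1 and the globins had different orders of replicates on NK cells, T cells and HSPCs. On NK cells the ratio of Car1 to summed globin TPM ran from 0.590 to 3.97, with the globins highest in replicate 1 and Car1 highest in replicate 3. T cells had the same order of replicates, with ratios from 0.107 to 2.44. On HSPCs the globins were highest in replicate 3 and Car1 in replicate 2, and the ratio stayed between 0.639 and 0.990. It was 0.0492 to 0.133 on monocytes and 0.00503 to 0.0319 on B cells, and on both of these types Car1 and the globins had the same order of replicates.

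**Figure D5:**
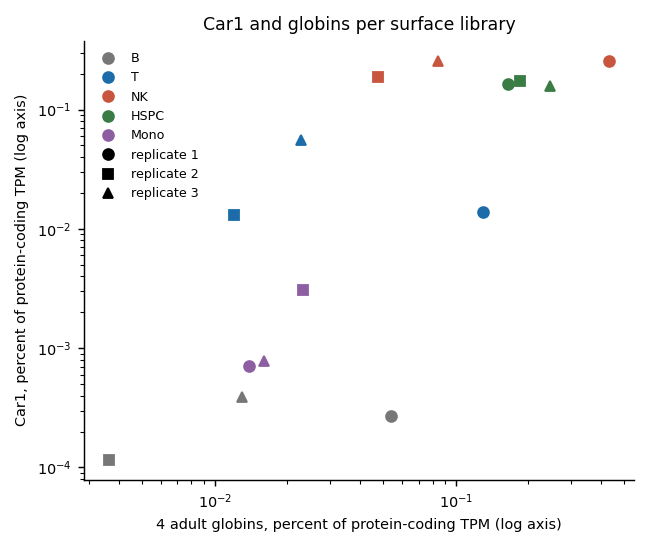
Car1 against the 4 adult globins in each surface library, both as percent of protein-coding TPM on log axes. Colour marks the cell type and shape the replicate number. The 3 NK points span 0.0475 to 0.433% in globins at 0.189 to 0.257% in Car1, and the HSPC points lie close together.

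The surface contrasts were computed with limma on log2(TPM + 1), on which differences of low genes are understated, and 6 of the 9 members passed the filter of a mean of 1 TPM. Alas2, Slc4a1 and Bpgm did not pass. NK cells were set against B and T cells, all from spleen. Members rose on NK cells in 4 of 6 cases, where 20.2% of all 10312 genes tested were called higher. Car1 was higher by 4.76 ± 0.41 (SE; limma, adjusted p = 4.1e-06) and Car2 by 3.36 ± 0.34 (limma, adjusted p = 1.27e-05). Hba-a2 was higher by 2.60 ± 0.52 (limma, adjusted p = 0.00300) and Hbb-bs by 1.81 ± 0.54 (limma, adjusted p = 0.0259). Hba-a1, at 1.36 ± 0.60 (limma, adjusted p = 0.116), and Hbb-bt, at 0.87 ± 0.34 (limma, adjusted p = 0.0803), did not pass. The median over all genes was 0.25, and the count of members called was 3 to 5 when single libraries were left out. Without NK replicate 1 Hba-a2 was higher by 1.98 and Hbb-bs by 1.17, and without NK replicate 2 by 3.17 and 2.38. Over all genes 2086 rose and 340 fell as deposited, 1614 rose and 1710 fell after quantile normalization, and 3351 rose and 1063 fell after rescaling to protein-coding TPM. Members called higher numbered 3 of 6 after quantile normalization, 5 of 9 after rescaling and 3 of 9 with no filter.

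HSPCs from bone marrow were set against the 3 spleen cell types, so tissue and cell type cannot be told apart. Members rose on HSPCs in 3 of 6 cases, where 7.59% of all genes tested were called higher. Car2 was higher by 2.26 ± 0.32 (limma, adjusted p = 9.97e-05), Car1 by 2.17 ± 0.39 (limma, adjusted p = 0.000774) and Hba-a2 by 1.89 ± 0.49 (limma, adjusted p = 0.0103). Hba-a1, at 1.33 ± 0.57, Hbb-bs, at 1.10 ± 0.51, and Hbb-bt, at 0.56 ± 0.32, did not pass (limma, adjusted p = 0.0951, 0.123 and 0.219). Without B cell replicate 1, the library with the highest B cell globin level, 5 members were called, and 2 were called without HSPC replicate 2 or without HSPC replicate 3. Over all genes the median was -0.15, with 783 higher and 2155 lower as deposited, 3125 and 2519 after quantile normalization, and 3675 and 2453 after rescaling.

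Monocytes and HSPCs are both from bone marrow but differ in sequencing platform and in protein-coding share, which cannot be told apart from cell type. The median of all genes was 2.58 in favour of monocytes. Against that shift Car1 fell by 3.02 ± 0.48 (limma, adjusted p = 2.38e-05) and Car2 fell by 1.52 ± 0.39 (limma, adjusted p = 0.00181), where 0.844% of all genes tested were called lower. Hba-a1 differed by -0.85 ± 0.69 and Hba-a2 by -0.07 ± 0.61, neither called, against -3.07 and -3.46 under quantile normalization and -6.91 and -3.57 after rescaling. Rescaling kept only protein-coding transcripts, of which Hba-a1 had 0 TPM in monocyte replicates 1 and 3. The value of -6.91 rests on these zeros and is not an exact difference. Hbb-bs differed by 0.17 ± 0.62 and Hbb-bt by 0.63 ± 0.39, neither called, and both turned negative under quantile normalization (-2.83 and -1.39) and rescaling (-3.26 and -2.55). All 6 tested members were called lower under quantile normalization, with a median of -3.27, and 6 of 9 after rescaling. Over all genes 9493 rose and 87 fell as deposited, 2749 and 2799 after quantile normalization, and 3537 and 2034 after rescaling.

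T cells were set against B cells within spleen. Car1 was higher on T cells by 1.73 ± 0.48 (limma, adjusted p = 0.0113), the single member called, where 4.75% of all genes tested were called higher. It was not called without T cell replicate 3, at a difference of 1.17, or with no filter on low values. Hba-a2 differed by 0.18 ± 0.61 and Hbb-bt by -0.33 ± 0.39. Hba-a1 differed by -0.32 ± 0.69, which became 2.18 after rescaling, where only protein-coding transcripts were kept. In B cell replicate 3 all 0.500 TPM of Hba-a1 was in the retained-intron transcript, so that library dropped to 0. Hbb-bs differed by -0.17 ± 0.62, which became 1.20 after rescaling and 0.46 after quantile normalization. Over all genes, with a median of -0.39, 490 rose and 3696 fell as deposited, 1749 and 2133 after quantile normalization, and 1810 and 2534 after rescaling.

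Of the other erythroid genes, 33 passed the surface filter. On NK cells against B and T cells 23 rose and 0 fell, with a median of 1.20, where 20.2% of all genes were called higher. The water channel gene Aqp1 was higher by 3.04 ± 0.34 and the red cell surface gene Ermap by 2.74 ± 0.27 (limma, adjusted p = 3.45e-05 and 1.23e-05). Klf1, the erythroid transcription factor, was higher by 1.95 ± 0.22 and the erythropoietin receptor gene Epor by 1.86 ± 0.29 (limma, adjusted p = 3.3e-05 and 0.000486). On HSPCs against the spleen types 19 rose and 2 fell, with a median of 0.92, where 7.59% of all genes were called higher and 20.9% lower. Aqp1 was higher by 2.71 ± 0.32, Ermap by 2.26 ± 0.26, the Rh blood group gene Rhd by 1.87 ± 0.26 and Epor by 1.60 ± 0.28, while the glucose transporter gene Slc2a1 fell by 0.70 ± 0.14 and the catalase gene Cat fell by 0.54 ± 0.18.

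On monocytes against HSPCs 20 of these 33 rose, where 92.1% of all genes did, and 7 fell, which became 4 and 26 under quantile normalization and 4 and 34 after rescaling, where more genes were tested. Ermap fell by 1.87 ± 0.31, Aqp1 fell by 1.64 ± 0.40, Rhd fell by 1.52 ± 0.32 and Klf1 fell by 1.51 ± 0.25. The mitophagy receptor gene Bnip3l was higher by 4.12 ± 0.33, the transcription factor gene Nfe2 by 3.79 ± 0.18, the ubiquitin ligase gene Mkrn1 by 3.26 ± 0.22 and Cat by 3.16 ± 0.22. On T cells against B cells 0 rose and 11 fell, where 35.8% of all genes fell, which became 8 and 6 under quantile normalization and 12 and 8 after rescaling. Cat fell by 1.63 ± 0.22, the biliverdin reductase gene Blvrb fell by 1.62 ± 0.25, the mitochondrial iron importer gene Slc25a37 fell by 1.60 ± 0.19 and Prdx2 fell by 1.26 ± 0.34.

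Markers of other cell types also differed between the surface groups. The neutrophil list summed to 34.9 to 48.7 TPM on NK cells and 91.0 to 243 on HSPCs, against 0.0785 to 0.550 on B cells and 0.850 to 1.26 on T cells, and to 2093 to 2376 on monocytes. All list sums in this paragraph are TPM as deposited, not scaled to the larger protein-coding part of the monocyte libraries, so no order against monocytes is read from them. The platelet list summed to 8.31 to 17.5 TPM on NK cells, 28.3 to 50.7 on HSPCs, 138 to 194 on monocytes, 1.37 to 1.55 on B cells and 0.293 to 1.12 on T cells. As deposited, 12 of 12 tested platelet genes rose on monocytes against HSPCs, where 92.1% of all genes did. Under quantile normalization 12 of 12 fell, where 2799 of all 10312 genes did. After rescaling 8 of 14 fell, where 2034 of 12572 did. The HSPC list summed to 7.501 to 14.9 TPM on NK cells and 11.2 to 17.3 on HSPCs, against 33.2 to 35.0 on monocytes, 0.468 to 0.632 on B cells and 0.813 to 1.26 on T cells. The NK list summed to 84.1 to 250 TPM on NK cells and 6.02 to 14.8 on T cells. NK libraries also held other lymphocyte markers, as the B cell list summed to 12.9 to 21.3 TPM on NK cells and the T cell list to 4.80 to 10.6. On their own cell types the B cell list summed to 229.7 to 365 TPM and the T cell list to 38.5 to 116. The monocyte list summed to 3829 to 4738 TPM on monocytes, 17.3 to 26.8 on NK cells, 14.6 to 39.2 on HSPCs, 7.09 to 17.3 on T cells and 1.52 to 1.98 on B cells. Of its 10 genes, 8 rose on NK cells against B and T cells, where 20.2% of all genes tested did. On HSPCs against the spleen types 6 rose, where 7.59% of all genes tested did. The monocyte and proliferation counts are given as deposited only, and the all-gene counts depended on the scaling, as shown above. Of 8 proliferation genes, 8 rose both on NK cells against B and T cells and on HSPCs against the spleen types. Their sums were 10.3 to 30.9 TPM on NK cells, 20.5 to 33.7 on HSPCs, 4.54 to 7.07 on B cells and 1.30 to 3.47 on T cells. The part of other cell types in the members' surface levels was not tested.

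Over the 15 surface libraries, the gene most like the summed globins in log2(TPM + 1), of 1643 compared, was Gm22973, with Pearson r = 0.925. It was followed by Gm55276 (0.816), the histone genes H2ac24 (0.791) and H2ac12 (0.781), and Gm26316 (0.776). For Car1 the closest genes outside the set were Gm10925 (0.712), Gm55286 (0.683), the small nucleolar RNA gene Snora73a (0.678), the granzyme A gene Gzma (0.660) and Gm55094 (0.653). Within the set, Car2 had r = 0.913 with Car1, Hba-a2 0.609, Alas2 -0.01 and Bpgm -0.21. The points share 5 cell types and their library composition, so these values describe the likeness only.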

How the data were processed

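Surface RNA was profiled with AMOUR in 15 mouse libraries and total RNA in 9 PBMC libraries. The authors deposited RSEM expected counts and TPM per gene for PBMCs and kallisto TPM per transcript for surface RNA. The submitters' processing notes name Trim Galore, cutadapt, STAR, featureCounts, RSEM and kallisto without versions. The study's methods give versions of kallisto and STAR that are not repeated here. The transcript set behind the surface TPM is not given either, so coordinates come from GENCODE M21 (GRCm38), to which PBMC gene identifiers were matched. Members and lists were chosen with earlier results of these data known. Counts were rounded and tested with edgeR 4.0.16 (TMM, quasi-likelihood, all 9 libraries in one fit, R 4.3.3). Surface TPM were summed by gene over the 102001 transcripts listed in all 5 tables and tested with limma 3.58.1 on log2(TPM + 1), for genes with a mean of at least 1 TPM, since TPM are not counts. The study's methods name DESeq2, and DESeq2 1.42.0 was an alternative for the counts. A call is a Benjamini-Hochberg adjusted p under 0.05. Scripts were tested on simulated data. CPM are rounded counts of each 1000000 in the library. Other alternatives were RLE factors, library sizes without the largest rRNA gene and the 4 adult globins, only the compared groups, no filter or a filter of 50 TPM, a pseudocount of 0.1, quantile normalization, rescaling to 1000000 protein-coding TPM with protein-coding transcripts only, all transcripts, no monocytes, a replicate block, and each library left out in turn. Named genes are all members, up to 4 called other erythroid genes per direction and comparison by size, the leading transcripts, the other globins, and the 5 genes most like the globins or Car1 with a mean of at least 10 CPM or TPM. Promoters are RefSeq's. No protein sequences were used here. Some genes that this rule names are not reported here.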

Additional observations from a re-analysis of the deposited data

How the results depend on the processing

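Direction of the members tested in the report was kept in WT against ct, Y against ct, HSPCs against spleen types and NK against B and T cells under every alternative run. Members tested only under an alternative could differ in sign from the rest, as 1 of 9 did in WT against ct with no filter and in HSPCs against spleen types with no filter and after rescaling. Direction changed in some alternatives for Y against WT, monocytes against HSPCs and T against B cells. All genes called in WT against ct numbered 275, then 170 with DESeq2, 484 with no filter and 168 to 253 when single libraries were left out. In Y against ct they numbered 82, then 257 with no filter and 34 to 167 without single libraries, with 2 to 8 members and 3 to 9 other erythroid genes called (6 with DESeq2). In Y against WT they numbered 146, then 97, 366 and 52 to 148. A filter of 50 TPM in at least 1 library left 1344 genes. Calls were then 775 for HSPCs against spleen types, 1244 for monocytes against HSPCs, 508 for NK cells and 716 for T cells. The 1 member tested, Car1, passed this filter through NK replicate 3 alone, so its calls here are not read as a result. Of the other erythroid genes 1, 1, 1 and 0 were called. Quantile normalization tested 10312 genes and 6 members. It called 5644 genes and 6 members for HSPCs, 5548 and 6 for monocytes, 3324 and 3 for NK cells, and 3882 and 2 for T cells. Rescaling tested 12572 genes, 9 members and 45 other erythroid genes. It called 6128 genes, 5 members and 38 other erythroid genes for HSPCs, and 5571 genes and 6 members for monocytes. For NK cells it called 4414 genes, 5 members and 36 other erythroid genes. For T cells it called 4344 genes, 2 members and 20 other erythroid genes. No filter, with 35001 genes and 9 members tested, gave 18548 genes and 5 members for monocytes, 3 of them higher and 2 lower. It gave 0 members for T cells. Without monocytes NK calls were 1539, and T against B had 7 other erythroid genes. Leaving out single libraries gave 2 to 5 members for HSPCs, 1152 to 4429 genes for NK cells (4429 without NK replicate 1, 1353 without 2 and 1152 without 3), and 2634 to 4361 genes, 0 to 1 members and 6 to 10 other erythroid genes for T cells. Where no value shows it, the cause was not tested. With a replicate block, calls were 234, 74, 128, 3156, 9596, 2671 and 4387 in the order of comparisons above. The replicate numbers were not taken as pairs, since correlations of same-numbered PBMC libraries ran from -0.119 to 0.175 and those of surface libraries from -0.380 to 0.642. T cell and NK libraries alone had all 3 above 0.1 (0.330 to 0.642). Surface depth is unknown, and 3 libraries a group limit all comparisons.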
